A study of Mus musculus with 7 samples.

Results

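Susd6, Tmem127 and Wwp2 were followed in sorted type 2 innate lymphoid cells (ILC2s) of mouse hearts. They are 3 of the 55335 gene identifiers in the deposited tables, found by their symbols, and all 3 passed the filter on low counts that left 17015 genes for testing. Susd6 had been singled out by its difference between the groups in these same libraries, and Tmem127 and Wwp2 were added as its partners. The difference in Susd6 is therefore given as a description. ILC2s are lymphocytes without antigen receptors that depend on the transcription factor GATA3 and carry ST2, the receptor for interleukin 33.

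The study set 3 libraries of naive hearts against 4 libraries of cardiac allografts, which were Balb/C hearts in C57BL/6 (B6) hosts, a combination that is rejected acutely. Grafts were collected 7 days after transplantation, and cells were sorted as CD45-positive, lineage-negative and ST2-positive. Each library pooled the cells of 4 to 7 hearts, so the pools and not the animals were the replicates. The genotype field of the labels was empty, and they gave no age and no strain for the naive hearts. They also did not say whether sorted graft cells came from the donor or the host. The comparison asked how ILC2s that infiltrate a graft differ in RNA from those of the resting heart.

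SUSD6 is a single-pass membrane protein with a sushi domain. It is known to form a complex with the multispanning membrane protein TMEM127 and with MHC class I molecules. The complex recruits WWP2, a HECT-type ubiquitin ligase of the NEDD4 family, which ubiquitinates class I molecules so that they are degraded in the lysosome. Class I molecules display peptides of the cell's own proteins to CD8 T cells and engage inhibitory receptors of natural killer cells. Susd6 is also known as a target of p53, TMEM127 as a tumour suppressor that restrains mTORC1 at the lysosome, and Wwp2 as the host gene of microRNA 140.

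In the mm10 build named in the submitters' processing notes, all 3 genes are protein-coding and lie on the plus strand (GENCODE M21 annotation). Susd6 (ENSMUSG00000021133) spans chr12:80790510-80880835, with 7615 bases of exon. Tmem127 (ENSMUSG00000034850) spans chr2:127247908-127261107, with 4811 bases of exon. Wwp2 (ENSMUSG00000031930) spans chr8:107436365-107558595, with 8871 bases of exon. No other annotated gene overlaps Susd6 or Tmem127. Within Wwp2 lie the gene of microRNA 140, which shares 70 exon bases on the same strand, and 2 pseudogenes on the opposite strand that share no exon base with it.

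The promoters are shown so that the start region of Susd6, the one gene of the 3 whose groups did not overlap, can be read beside those of its partners. Each sequence runs 5′ to 3′ from 250 bases before to 50 bases after the annotated RefSeq start (GRCm38.p6, plus strand), at chr12:80790282-80790581 for Susd6, chr2:127247698-127247997 for Tmem127 and chr8:107436120-107436419 for Wwp2. Capitals mark matches on either strand to the motifs searched. These were the GC box GGGCGG, the E-box CACGTG, the cyclic AMP response half-site TGACG and the ETS core CCGGAAG.
Susd6: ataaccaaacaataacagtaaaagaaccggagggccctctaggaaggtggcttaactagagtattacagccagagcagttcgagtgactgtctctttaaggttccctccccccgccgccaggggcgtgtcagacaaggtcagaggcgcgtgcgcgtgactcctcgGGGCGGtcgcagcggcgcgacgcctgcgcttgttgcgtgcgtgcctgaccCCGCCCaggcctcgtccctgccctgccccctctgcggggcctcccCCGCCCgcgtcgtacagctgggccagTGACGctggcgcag
Tmem127: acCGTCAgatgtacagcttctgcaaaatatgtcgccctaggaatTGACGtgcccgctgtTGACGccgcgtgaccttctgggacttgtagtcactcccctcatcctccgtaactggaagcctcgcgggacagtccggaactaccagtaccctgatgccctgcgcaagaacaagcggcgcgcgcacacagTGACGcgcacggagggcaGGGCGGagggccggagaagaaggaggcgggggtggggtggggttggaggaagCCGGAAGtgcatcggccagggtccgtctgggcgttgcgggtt
Wwp2: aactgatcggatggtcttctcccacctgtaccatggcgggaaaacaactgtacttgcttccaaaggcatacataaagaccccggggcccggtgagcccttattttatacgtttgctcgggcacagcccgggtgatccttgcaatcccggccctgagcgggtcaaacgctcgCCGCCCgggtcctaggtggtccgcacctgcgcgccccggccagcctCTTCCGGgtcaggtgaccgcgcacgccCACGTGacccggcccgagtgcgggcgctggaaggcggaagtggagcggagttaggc

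All 3 promoters were rich in CpG. Susd6 had 28 CpG dinucleotides, Tmem127 27 and Wwp2 28, where the median of 32851 RefSeq promoters was 7. The GC content was 65.3% for Susd6, 63.3% for Tmem127 and 64.3% for Wwp2, against a median of 52.7%. The GC box occurred 3 times in the Susd6 promoter and once in each partner's, and 35.7% of all promoters held at least 1. The half-site TGACG occurred once for Susd6, 4 times for Tmem127 and not for Wwp2 (20.8% of all promoters). The ETS core was found once in each partner's promoter and not in that of Susd6 (8.86%), and the E-box in that of Wwp2 alone of the 3 genes (7.15%). The AP-1 site (7.81%), the GATA site AGATAA (11.2%) and the STAT element TTCNNNGAA (8.3%), which were also searched, had no match in these windows. No motif searched is contained whole in another. A match of letters is a description and not a measured site.

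Total counts lay between 29107326 and 53044907 per library. The naive libraries resembled one another less (Pearson's r across genes, which are not replicates, 0.529 to 0.683) than the allografts did (0.873 to 0.921). Naive replicate 2 stood apart. Mitochondrial transcripts held 26.49% of its counts, against 2.037% to 3.109% in the other 6 libraries. The summed level of 13 ILC2 markers, including Gata3, Il1rl1 (which encodes ST2) and Il7r, was 1162 CPM (counts scaled to the library total) there and 11370 to 15310 CPM in the others. The sum of 6 kidney tubule genes was 9762 CPM there and at most 244.5 CPM elsewhere. Fitted log2 differences of the genes described are therefore given also without that library, while levels and marker sums are given for every library or as the range over all of them.

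The RNA of Susd6 was low in the naive hearts and high in the allografts. Susd6 measured 4.468, 4.198 and 6.125 CPM across naive replicates 1 to 3, from 237, 191 and 267 counts. Grafts 1 to 4 measured 74.01, 71.25, 87.5 and 73.93 CPM, from 3258, 2309, 3575 and 2152 counts. The groups did not overlap, and the lowest allograft stood 11.6-fold above the highest naive library. Means ± SD were 4.93 ± 1.043 CPM for the naive pools (n = 3) and 76.67 ± 7.329 CPM for the grafts (n = 4), a 15.6-fold ratio of means. The naive mean was 5.297 CPM without naive replicate 2. In bulk RNA of sorted cells, a change in the number of cells that express a gene and a change in the RNA per cell cannot be told apart.

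Across all genes the edgeR quasi-likelihood fit gave Susd6 a log2 fold change, allograft over naive, of 3.75 (SE 0.350, 95% interval 2.93 to 4.57). Susd6 was 1 of 6 genes (0.0353% of those tested) with a Benjamini-Hochberg adjusted p under 0.05 in that fit, which is how it came to be chosen. Without naive replicate 2 the log2 fold change was 3.80 (SE 0.336), and 560 of 18037 genes (3.1%) were called. Leaving out each of the 7 libraries in turn kept the log2 fold change between 3.61 and 3.86. With any 1 allograft library left out, Susd6 was no longer called (adjusted p 0.183 to 0.228), and neither was any other gene at an adjusted p under 0.05, while 848 to 1074 genes had an unadjusted p under 0.05.

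Susd6 varied little within either group. The SD of its log2 CPM was 0.29 among the naive libraries, where the median over all tested genes was 1.62. Among 2236 genes of similar average level the naive median was 1.08, and 94.9% of them varied more than Susd6. Its SD among the allografts was 0.13, against 0.28 for the genes of similar level. Naive replicate 2, with an ILC2 marker sum of 1162 CPM, and naive replicate 1, with 11370 CPM, had nearly the same Susd6 level by CPM. That nearness depends on scaling to the library total. The fit's further scaling factors (TMM) were 0.7238 for naive replicate 2 and 1.071 for naive replicate 1. The choice of Susd6 by a test that rewards a small spread favours low SDs, so these values are a description too.

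**Figure D1:**
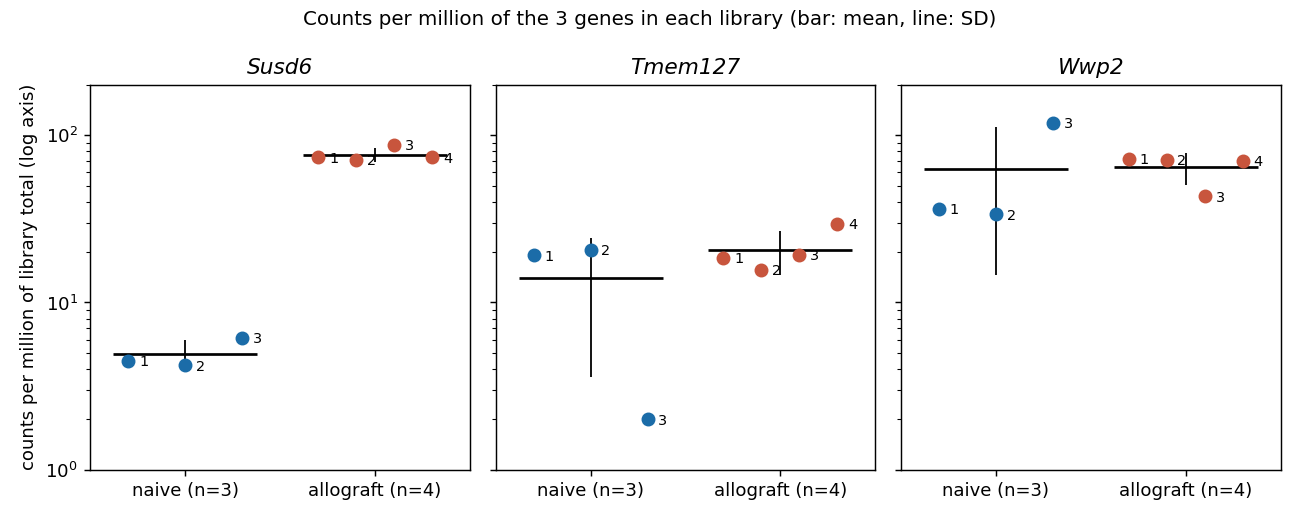
CPM (log axis) of Susd6, Tmem127 and Wwp2, with 1 point per library numbered by replicate, a bar at the mean and a line for the SD of 3 naive and 4 allograft libraries. The Susd6 points of the allografts (71.25 to 87.5) all lie above the naive ones (4.198 to 6.125), while the groups overlap for both partners, with naive replicate 3 apart from the other naive libraries.

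Tmem127, the adaptor of the complex, showed no such separation. It measured 19.19, 20.71 and 1.996 CPM across naive replicates 1 to 3, while grafts 1 to 4 measured 18.49, 15.64, 19.31 and 29.51 CPM. Naive replicate 3, with 87 counts, lay about an order of magnitude under every other library, and naive replicates 1 and 2 lay within the range of the allografts. Means ± SD were 13.96 ± 10.39 CPM for the naive pools (n = 3) and 20.74 ± 6.055 CPM for the grafts (n = 4). The log2 fold change was 0.26 (SE 0.820, 95% interval -1.65 to 2.17, adjusted p = 0.967 in edgeR). It was 0.94 (SE 0.872, adjusted p = 0.61) without naive replicate 2 and -0.25 (SE 0.418, adjusted p = 0.794) without naive replicate 3, so the direction rested on that library. With DESeq2 size factors it was -0.01.

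Wwp2, the ligase, also overlapped between the groups. It measured 36.37, 33.74 and 119.2 CPM across naive replicates 1 to 3, while grafts 1 to 4 measured 72.07, 71.37, 43.27 and 70.09 CPM. The highest value was that of naive replicate 3 and the lowest that of naive replicate 2, so the naive libraries enclosed the allografts. Means ± SD were 63.09 ± 48.57 CPM for the naive pools (n = 3) and 64.2 ± 13.98 CPM for the grafts (n = 4). The log2 fold change was -0.13 (SE 0.478, 95% interval -1.25 to 0.98, adjusted p = 0.971 in edgeR), and -0.34 (SE 0.505, adjusted p = 0.78) without naive replicate 2. Without naive replicate 3 it was 0.59 (SE 0.332, adjusted p = 0.394), of the opposite sign. The intervals of both partners lay between -1.65 and 2.17. Neither excludes a change of 0.9 on the log2 scale in either direction.

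The libraries that stood out differed between the partners. In naive replicate 3 Tmem127 was at its lowest and Wwp2 at its highest, and the number of genes with at least 1 count was the lowest of all libraries (13864, against 15820 to 21354). In allograft replicate 3 Susd6 was at its highest of the 4 grafts and Wwp2 at its lowest. Whether the number of detected genes bears on these values was not tested.

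**Figure D2:**
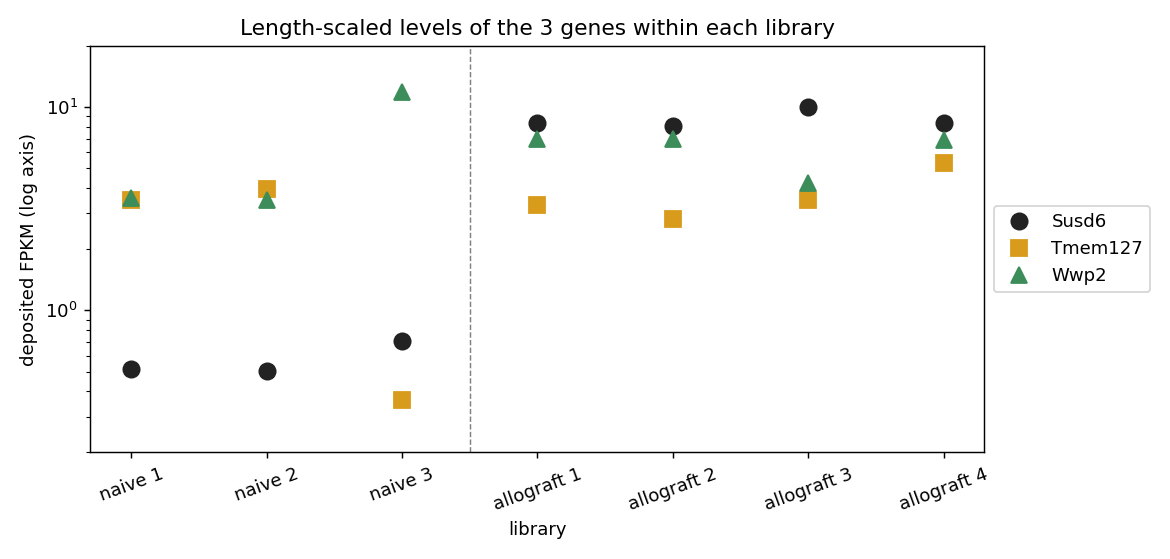
Deposited FPKM (log axis) of the 3 genes in each library, 1 marker per gene, with a dashed line between the naive and the allograft libraries. Susd6 is the highest of the 3 genes in every allograft library and under Wwp2 in every naive library.

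Levels of different genes were compared on the deposited FPKM, which are scaled to gene length. Susd6 measured 0.5123, 0.5034 and 0.7072 FPKM across naive replicates 1 to 3 and 8.339, 8.086, 9.962 and 8.392 FPKM in allograft replicates 1 to 4. Tmem127 measured 3.483, 3.94 and 0.3625 FPKM across the naive pools and 3.295, 2.81, 3.477 and 5.301 FPKM across the grafts. Wwp2 measured 3.589, 3.491 and 11.88 FPKM across the naive pools and 7.002, 6.969, 4.238 and 6.856 FPKM across the grafts. By FPKM the order in all 4 allografts was Susd6, then Wwp2, then Tmem127. In naive replicate 1 it was Wwp2, Tmem127, Susd6, with the first pair differing by less than their spread over the naive libraries (3.589 and 3.483 FPKM). In naive replicate 2 Tmem127 stood just above Wwp2 with Susd6 last, and in naive replicate 3 the order was Wwp2, Susd6, Tmem127.

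By FPKM, Susd6 and its ligase stood in the opposite order in the 2 groups. Their counts were close in allograft replicates 1 (3258 for Susd6 and 3173 for Wwp2), 2 (2309 and 2313) and 4 (2152 and 2040). By counts Susd6 was narrowly the higher in allograft replicates 1 and 4, while in allograft replicate 2 the order depends on the length scaling. The ratio of Wwp2 to Susd6 FPKM was 7.01, 6.93 and 16.8 across naive replicates 1 to 3, and across the grafts it was 0.84, 0.862, 0.425 and 0.817. Susd6 made up 5.46% to 6.76% of the summed FPKM of the 3 genes in naive and 40.8% to 56.4% in allograft libraries. That sum was 7.58, 7.93 and 13 FPKM across naive replicates 1 to 3 and 17.7 to 20.5 FPKM in the allografts. The ratio of Wwp2 to Tmem127 lay between 0.886 and 2.48 in 6 libraries and was 32.8 in naive replicate 3. Within the libraries, Susd6 stood above 27.8% to 41.1% of all tested genes by FPKM in naive hearts and above 73.2% to 76.4% in allografts. Since Susd6 was chosen on its difference, these ratios describe the libraries and carry no test.

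The class I genes whose products the complex removes were abundant in both groups. B2m, the light chain of class I molecules, measured 9176, 930.9 and 5241 FPKM across naive replicates 1 to 3 and 4481 to 6563 FPKM in the allografts. H2-K1, a classical heavy chain, measured 476.6, 64.44 and 470 FPKM across the naive pools and 507.3 to 570.3 FPKM across the grafts. H2-D1, another classical heavy chain, measured 1687, 240 and 1727 FPKM across the naive pools and 1285 to 1825 FPKM across the grafts. Naive replicate 2 was the lowest library for each of these 3 genes, while its Susd6 level (0.5034 FPKM) was close to that of naive replicate 1 (0.5123 FPKM). Heavy chain genes are polymorphic and near-identical to relatives, and the counting could split their reads, so their values are uncertain where donor and host strains mix.

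**Figure D3:**
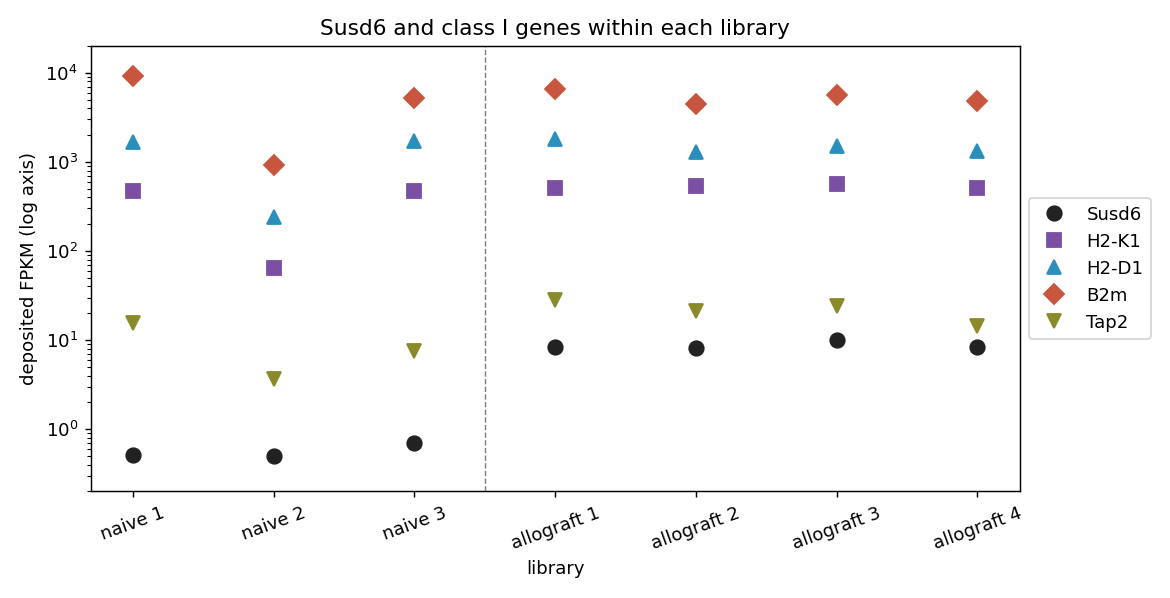
Deposited FPKM (log axis) of Susd6, the class I genes H2-K1, H2-D1 and B2m, and the peptide transporter gene Tap2 in each library, with a dashed line between naive and allograft libraries. The Susd6 markers step up from 0.5034 to 0.7072 in naive libraries to 8.086 to 9.962 in allografts. H2-K1 and H2-D1 have allograft values near those of naive replicates 1 and 3. B2m in the allografts (4481 to 6563) lies under naive replicate 1 (9176) and around naive replicate 3 (5241).

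None of the 17 genes of class I antigen presentation was called in either direction by edgeR at an adjusted p under 0.05 (background 0.0294% higher and 0.00588% lower), nor by DESeq2 (background 4.17% higher and 2.49% lower). Of the list, 2 genes had an unadjusted p under 0.05, both higher, as did 6.41% of all genes tested (3.86% lower). Over all genes that was 1091 higher and 657 lower, or 983 and 952 with DESeq2 size factors. Tap2, a subunit of the peptide transporter, had a fitted log2 difference of 1.23 (SE 0.462, adjusted p = 0.389; 0.91 without naive replicate 2), from 38.4 ± 26.93 CPM in naive to 96.54 ± 25.41 CPM in allograft libraries. Calr, which encodes the chaperone calreticulin of the class I loading complex, had 0.79 (SE 0.335, adjusted p = 0.477; 0.55 without naive replicate 2), from 237.4 ± 106.9 to 449.8 ± 72 CPM. For 2 of the 17 genes, H2-K1 and Calr, all grafts lay above all naive libraries, and 12.5% of all tested genes did so. Without naive replicate 2 the log2 fold changes of the list ran from -0.98 (Psmb9) to 0.91 (Tap2). Nlrc5 then had -0.90 and Erap1 -0.83, and edgeR called none of the list. The median log2 fold change of the list was 0.25, against -0.01 over all tested genes, and -0.01 against 0.23 without naive replicate 2. Without that library the log2 fold change was 0.14 (SE 0.160) for H2-K1, -0.22 (SE 0.214) for H2-D1 and -0.44 (SE 0.281) for B2m. Their adjusted p was 0.703, 0.628 and 0.427 in the same order.

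The non-classical class I genes, heavy chains with narrower roles, were likewise at overlapping levels. None of 8 tested was called (edgeR or DESeq2), none had an unadjusted p under 0.05, and none separated the groups. The median log2 difference was 0.43 (-0.03 without naive replicate 2). The genes with the smallest p were H2-M3 at 0.70 (SE 0.569, adjusted p = 0.776) and H2-T23 at 0.42 (SE 0.413, adjusted p = 0.83). They were 0.32 and 0.05 without naive replicate 2.

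Of the relatives of Wwp2 in the NEDD4 family of ubiquitin ligases, 7 of 8 were tested and edgeR called none. DESeq2 called Nedd4l lower (2.49% of all genes it tested were). Itch, a ligase known to restrain T helper 2 responses, measured 4.939, 19.83 and 1.055 CPM across naive replicates 1 to 3, while grafts 1 to 4 measured 29.62, 32.18, 41.48 and 36.31 CPM. All grafts lay above all naive libraries, as for 12.5% of all tested genes. The log2 fold change of Itch was 1.56 (SE 0.987, adjusted p = 0.709), and 3.51 (SE 0.731, adjusted p = 0.0595) without naive replicate 2. Wwp1, the closest namesake of Wwp2, measured 10.92, 46.51 and 39.04 CPM across the naive pools and 24.76, 22.06, 7.587 and 19.38 CPM across the grafts, with overlap and a fitted log2 difference of -1.13 (SE 0.685, adjusted p = 0.685). That of Wwp1 was -0.50 (SE 0.691, adjusted p = 0.761) without naive replicate 2. Nedd4l, which acts on ion channels, measured 9.313, 93.86 and 69.81 CPM across the naive pools and 4.675 to 16.08 CPM across the grafts, a fitted log2 difference of -2.70 (SE 0.857, adjusted p = 0.341). Its highest value was in naive replicate 2, the library with the high kidney tubule sum, and without it the fitted difference was -1.86 (SE 0.849, adjusted p = 0.278). Smurf2, which limits TGF-beta signalling, lay lower in every allograft than in any naive library, at -0.91 (SE 0.445, adjusted p = 0.576; -0.93 without naive replicate 2), as did 2.15% of all tested genes. The list's median log2 difference was -0.91 (-0.50 without naive replicate 2).

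Membrane adaptors that bring NEDD4-family ligases to their substrates, the role that TMEM127 and SUSD6 play for WWP2, were also tested. Of 9 adaptor genes edgeR called none, with none at an unadjusted p under 0.05, and DESeq2 called Arrdc3 lower (background 2.49%). Arrdc3, an arrestin-like adaptor of membrane receptors, had a fitted log2 difference of -1.07 (SE 0.459, adjusted p = 0.489). Pmepa1, a membrane adaptor in TGF-beta signalling, had -1.04 (SE 0.480, adjusted p = 0.532). They were -1.30 and -1.10 without naive replicate 2. The median of the list was -0.64, and -0.30 without naive replicate 2. The MARCH ligases, a separate family of membrane-bound ubiquitin ligases that includes enzymes able to remove class I from the surface, differed widely in level. Of 7 listed, 5 were tested by edgeR and none was called, and March4 and March11 had no count in any library. DESeq2 gave an adjusted p for 2 of the 5 (March1 and March2) and called neither. March2 was the most abundant by FPKM, with 13.39, 10.05 and 4.622 FPKM across the naive pools and 10.54 to 17.42 FPKM across the grafts, and the groups overlapped. Its log2 fold change was 0.31 (SE 0.433, adjusted p = 0.898; 0.54 without naive replicate 2). The other 4 tested genes stayed at or under 0.7199 FPKM in every library but naive replicate 2. March1 had no count in the naive libraries and 2.431, 1.635, 0 and 1.855 CPM in allograft replicates 1 to 4 (adjusted p = 0.341, edgeR). The mean of the grafts was 23.2-fold the level of 3 counts per naive library, a bound for counting error only. March8 measured 1.301, 32.99 and 0.9635 CPM across the naive pools and 3.304 to 8.085 CPM across the grafts. Its log2 fold change of -1.59 (SE 1.34, adjusted p = 0.788) became 2.29 (SE 0.811, adjusted p = 0.205) without naive replicate 2. The MARCH list's median log2 difference was -0.44 with all 7 libraries. Without naive replicate 2 its median is no measured size. In that setting 3 of the 5 genes (March1, March3 and March9) had at most 3 counts in each naive library.

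The ESCRT machinery sorts ubiquitinated membrane proteins toward the lysosome. Of its 22 genes, edgeR called none. At an unadjusted p under 0.05, 1 was lower and none higher, where 3.86% of all tested genes were lower. This was Chmp3, a subunit of the membrane-cutting polymer. Chmp3 lay lower in every graft than in any naive library, as did 2.15% of all tested genes. It had 57.78 ± 7.929 CPM in naive and 31.56 ± 7.712 CPM in allograft libraries (log2 fold change -1.12, SE 0.363, adjusted p = 0.341; -0.88 without naive replicate 2). Chmp4b lay higher in every graft, as did 12.5% of all tested genes. Stam2, which binds ubiquitinated cargo, had -1.07 (SE 0.479, adjusted p = 0.514; -1.28 without naive replicate 2). DESeq2 called Chmp3 and Tsg101, another cargo-binding subunit, lower, and 2.49% of all genes it tested. The median of the list was -0.07, and -0.16 without naive replicate 2.

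**Figure D4:**
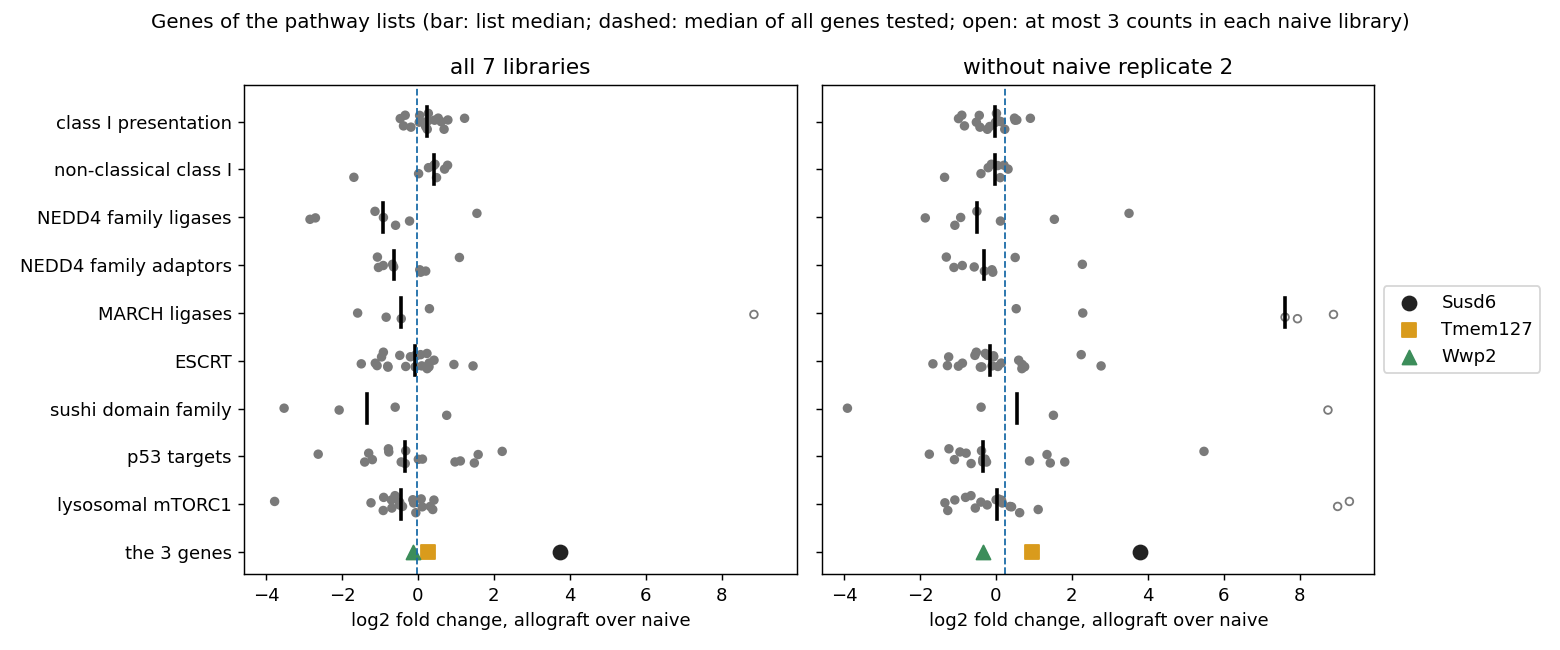
Log2 fold changes (allograft over naive) of the tested genes of 9 lists, 1 point per gene, with a bar at each list median and a dashed line at the median of all tested genes, for all 7 libraries (left) and without naive replicate 2 (right). Open points are genes with at most 3 counts in each naive library used, whose fitted values are no measured size. Susd6 lies at 3.75 (left) and 3.80 (right), Tmem127 at 0.26 and 0.94, and Wwp2 at -0.13 and -0.34.

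The other genes named for sushi domains were at low to moderate level. Of 5 listed, 4 were tested and none was called by edgeR or DESeq2 or had an unadjusted p under 0.05. Susd3 was the most abundant of them by CPM, with 74.35, 40.66 and 5.001 CPM in the naive and 26.6 to 37.8 CPM in the allograft libraries. Susd1 measured 0, 3.803 and 34.73 CPM across the naive pools and 0 to 2.93 CPM across the grafts (log2 fold change -3.52, SE 2.61, adjusted p = 0.752; -3.91 without naive replicate 2). Susd4 had 11.34 CPM in naive replicate 2, no count in naive replicates 1 and 3, and 0.2044 to 2.808 CPM in the allografts (-2.07, SE 2.45, adjusted p = 0.866). Without naive replicate 2 its direction turned (adjusted p = 0.134, edgeR). The mean of the grafts was then 21.5-fold the level of 3 counts per naive library, a bound for counting error only. The list's median log2 difference was -1.34, and 0.57 without naive replicate 2. In none of these genes did every graft lie above every naive library.

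Targets of p53, a class to which Susd6 belongs, had differences of both signs. Of 17 listed, 16 were tested and edgeR called none. At an unadjusted p under 0.05, 2 were higher (Trp53inp1 and Pmaip1) and 3 lower (Perp, Plk2 and Btg2), where 6.41% of all tested genes were higher and 3.86% lower. Trp53inp1, a stress-induced partner of p53, measured 40.89, 24.55 and 36.27 CPM across the naive pools and 109.1, 143.4, 58.25 and 120 CPM across the grafts. All grafts lay above all naive libraries, with a fitted log2 difference of 1.49 (SE 0.372, adjusted p = 0.186; 1.43 without naive replicate 2). Of the 16 tested, 3 lay above in this way (12.5% of all tested genes) and 2 below (2.15%). Perp, a p53 effector at cell junctions, measured 10.05, 50.8 and 31.36 CPM across the naive pools and 4.087 to 9.904 CPM across the grafts (-2.63, SE 0.734, adjusted p = 0.25). The fitted difference of Perp was -1.75 (SE 0.660, adjusted p = 0.228) without naive replicate 2. DESeq2 called Trp53inp1 higher and Perp lower (background 4.17% and 2.49%). The list's median log2 difference was -0.33 (-0.34 without naive replicate 2).

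Of the 18 genes of the lysosomal mTORC1 machinery, on which TMEM127 acts, edgeR called none and none had an unadjusted p under 0.05. Lamtor2, a subunit of the lysosomal scaffold, had a fitted log2 difference of -0.48 (SE 0.272, adjusted p = 0.656; -0.39 without naive replicate 2). Mtor, the kinase itself, had -0.60 (SE 0.348, adjusted p = 0.663; -0.65 without naive replicate 2) and was called lower by DESeq2 (background 2.49%). The list's median was -0.44, and 0.04 without naive replicate 2. Without naive replicate 2, edgeR called 1 gene of the 9 lists, where 3% of all genes were called higher and 0.0998% lower. This was Rragd, a Rag GTPase with no count in naive replicates 1 and 3, 54.62 CPM in naive replicate 2 and 0.9545 to 2.714 CPM in the grafts. With all 7 libraries its fitted log2 difference was -3.77 (SE 2.48, adjusted p = 0.72). Without naive replicate 2 the direction turned (adjusted p = 0.0485, edgeR). The mean of the grafts was then 31.7-fold the level of 3 counts per remaining naive library, a bound for counting error only. Over all 9 lists, 106 of 111 genes were tested, and the lowest adjusted p was 0.186. With DESeq2, which gave no adjusted p for some of them, 7 were called. Trp53inp1 was higher, and Nedd4l, Arrdc3, Chmp3, Tsg101, Perp and Mtor were lower. Of all genes it tested, 4.17% were called higher and 2.49% lower.

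**Figure D5:**
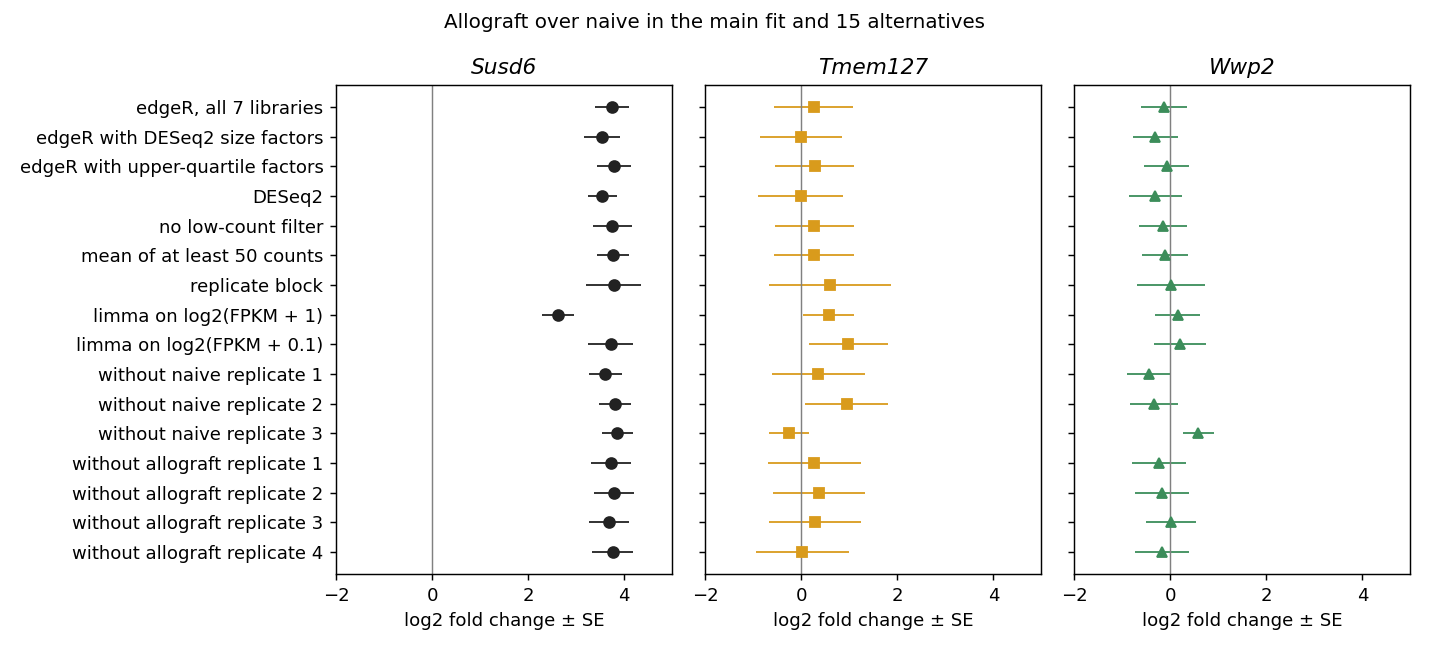
Log2 fold change with its standard error of Susd6, Tmem127 and Wwp2 in the edgeR fit of all 7 libraries and in 15 alternatives, with a grey line at 0. Susd6 stays between 2.62 and 3.86, while the values of Tmem127 and Wwp2 fall on both sides of 0.

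For each member, the 3 genes nearest in pattern across the 7 libraries were taken, whatever their distance. Likeness was measured among 7440 genes with an average log2 CPM of at least 4, as the root mean square difference of log2 CPM after each gene's own mean was taken off. Nearest to Susd6 were Ms4a6b (0.357), Ms4a4b (0.430) and Stx11 (0.515), against a median of 1.93 over all candidates. Ms4a6b and Ms4a4b encode membrane proteins of the MS4A family, and Stx11 encodes a syntaxin needed for the release of lytic granules. Ms4a4b had 7.226 to 7.759 CPM in the naive and 57.72 to 96.72 CPM in the allograft libraries, and Ms4a6b had 4.524 to 9.589 and 54.71 to 70.24 CPM. Stx11 had 6.127 to 12.46 and 55.29 to 110.6 CPM. Nearest to Tmem127 were Gtf3c6 (0.207), Ndufaf2 (0.232) and Eid1 (0.269), against a candidate median of 1.463. Each was lowest in naive replicate 3, at 8.259, 4.726 and 3.074 CPM. Nearest to Wwp2 were Ppig (0.140), Med23 (0.177) and Tmem167b (0.196), against a candidate median of 0.896. Each was highest in naive replicate 3, at 216.2, 32.48 and 58.15 CPM. Nothing beyond the likeness of values follows from these lists.

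The summed levels of dendritic, T, natural killer and eosinophil markers were higher in every graft than in any naive library. The sum of B cell markers overlapped only with naive replicate 1. The counts of single markers higher in every graft stand beside 12.5% of all tested genes. The 7 dendritic cell markers summed to 12.24 to 31.84 CPM in naive and 84.3 to 103.1 CPM in allograft libraries, and 5 of the 7 lay higher in every graft, with Itgax at 0 in all naive libraries. Of the 8 B cell markers, 5 lay higher in every graft, with Ms4a1 and Pax5 at 0 in the naive libraries. The 8 summed to 0 to 120 CPM in naive and 94.58 to 160.6 CPM in allograft libraries. Cd79b alone held 117.1 of the 120 CPM in naive replicate 1, and it had 34.63 to 47.75 CPM in the grafts. The 8 T cell markers summed to 13.69 to 179.4 CPM in naive and 200.3 to 247.8 CPM in allograft libraries, with 2 of 8 higher in every graft. Most of that sum in the grafts was Cd3g (175.2 to 219.3 CPM). Cd8a, Cd8b1 and Cd5 were at 0 in all naive libraries and at most 2.643 CPM in the grafts, with Cd8a and Cd5 also at 0 in allograft replicates 2 and 3 and Cd8b1 in allograft replicate 2. Cd3d (32.53 CPM) and Cd4 (11.58 CPM) were highest in naive replicate 3. The 5 natural killer cell markers summed to 0.641 to 30.72 and 35.08 to 59.08 CPM, with 3 of 5 higher in every graft and Klra8 at 0 in the naive libraries. The 4 eosinophil markers summed to 0 to 9.388 and 23.35 to 40.39 CPM, with 1 of 4 higher in every graft and Siglecf, Epx and Prg3 at 0 in the naive libraries. The 5 erythroid markers summed to 518.5 to 1991 CPM in naive and 317.1 to 406.3 CPM in allograft libraries. Sums of macrophage, mast cell, endothelial, fibroblast, cardiomyocyte and kidney tubule markers overlapped between the groups, and the 7 cardiomyocyte markers reached at most 9.222 CPM, with Tnnt2, Myl2 and Ryr2 at 0 in all libraries. Leaving out naive replicate 2 raises the lowest naive sum to 12.67 CPM for dendritic cell and 89.25 CPM for T cell markers, and lowers the highest erythroid sum to 534.2 CPM. The part of such cells in the Susd6 values was not tested.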

How the data were processed

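Per the submitters' processing notes, FastQC 0.11.5, STAR 2.5.3a, StringTie 1.3.1c and DESeq2 1.16.1 were used with the mm10 build, with no role stated. The annotation and use of strand are not given in the sources used here. Per the labels' protocols, cDNA was amplified from small RNA amounts without molecular identifiers, so the floor of 3 counts covers counting error only. Intervals of fitted differences include the spread between pools. The authors deposited whole-number counts and FPKM for 55335 identifiers (0 unmatched columns). CPM use the deposited library total.

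The test was edgeR 4.0.16 (R 4.3.3, quasi-likelihood, TMM, filterByExpr, Benjamini-Hochberg at 0.05) on all 7 libraries. A count of 0 allows up to 3 counts (0.0566 to 0.103 CPM). DESeq2 1.42.0, limma 3.58.1 on log2 FPKM (pseudocount 1 or 0.1), other scalings and filters, a replicate block and leaving out each library were alternatives. The code was tested on simulated data. Named were the 3 members, the 2 genes of smallest p per list, 5 class I and NEDD4-family genes, and 3 genes nearest each member (average log2 CPM of at least 4). The marker and pathway lists were summarised without set tests. Members and lists were chosen with earlier results of these data known. MARCH genes and Vps28 were matched by Ensembl identifier. Sequences are from RefSeq (GRCm38.p6). The labels state biological replicates, each a pool.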

Additional observations from a re-analysis of the deposited data

Results flagged for a closer look

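In the 4 allograft libraries, 48 values (CPM of the named genes and marker sums) were examined for 1 library standing far from the other 3. In 4 of them a library did, where chance gives about 2.4. Allograft replicate 3 was the library in 3 of the 4. Susd6 had 87.5 CPM there against 71.25 to 74.01 in the other grafts. Wwp2 had 43.27 CPM there against 70.09 to 72.07, and Tmem167b had 18.45 CPM against 28.39 to 30.09. Tmem167b was named for its likeness to Wwp2, so these last values are not separate evidence. For dendritic cell markers, allograft replicate 2 summed to 84.3 CPM and the other grafts to between 100.6 and 103.1 CPM.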

How the results depend on the processing

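Susd6 kept its direction in all 15 alternatives. Its log2 fold change was 2.62 on log2(FPKM + 1), where the pseudocount shrinks low values, and it was no longer called with DESeq2 size factors (adjusted p = 0.0603), without a low-count filter (0.0726) or with a replicate block (1). DESeq2 size factors moved the median of all genes from -0.01 to -0.20, and Tmem127 lay above that median under both scalings. Tmem127 reversed to -0.005 with DESeq2 or its size factors, and leaving out 1 library gave -0.25 to 0.94. Wwp2 reversed to 0.02 with a replicate block, 0.16 on log2(FPKM + 1) and 0.20 on log2(FPKM + 0.1), and leaving out 1 library gave -0.44 to 0.59. March8 turned to 0.44 (block), 0.19 (FPKM + 0.1) and 2.29 (without naive replicate 2, where leaving out 1 library gave -2.12 to 2.29), and Susd4 to 4.76, 0.008 and 8.75 (-2.63 to 8.75). The 8.75 is no measured size, since the remaining naive libraries had no Susd4 count, and the bound, for counting error only, is 21.5-fold. Without naive replicate 2, H2-D1 (-0.22) and B2m (-0.44) turned, B2m also with DESeq2 or its size factors (-0.058) and without allograft replicate 1 (-0.096). Leaving out 1 library gave -0.22 to 0.58 for H2-D1 and -0.44 to 0.70 for B2m. The causes were not tested. The 6 genes called (5 higher, 1 lower) became 1012 with DESeq2 (633 higher, 379 lower), 76 on log2(FPKM + 1) (73 and 3), 201 on log2(FPKM + 0.1) (195 and 6) and 0 with the block (252 at an unadjusted p under 0.05). The 1 lower gene was lost (0) with DESeq2 size factors, without a filter and at a mean of at least 50 counts. Leaving out 1 library gave 0 to 560 genes (0 to 542 higher, 0 to 18 lower), with 107 without naive replicate 1 and 560 without naive replicate 2. Same-numbered libraries did not deviate together (r of deviations 0.0167, -0.018 and 0.0368 for replicates 1 to 3), so the block pairs libraries by number alone. List medians moved by more than the spread between libraries in 22 of 135 refits.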
